A study of Mus musculus with 4 samples.

Results

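Nuclear hormone receptors are transcription factors that many hormones, vitamins and lipids act through, and 31 of their genes were followed here in chondrocytes of the mouse forelimb. The 31 were chosen by name, out of 34547 genes in the deposited tables. They comprise 2 thyroid hormone receptors, the vitamin D receptor, 3 steroid receptors, 3 retinoid X receptors (RXR), 5 receptors for fatty acids and oxysterols, and 17 orphan receptors, so called because they were found before any ligand. Retinoic acid receptors are left out. The 31 and the gene lists used below were chosen with earlier results of these data known. A list's share of called genes beside that of all genes thus describes the list and does not test it.

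RNA was sequenced from 2 groups of 2 libraries each. The HC group holds hypertrophic chondrocytes of stage E15.5 (replicates 3 and 4), the enlarged cells that mineralise their matrix before bone replaces them. The PC group holds proliferating chondrocytes of stage E14.5 (replicates 1 and 2), the dividing cells that come before them. Cells of both groups were cut by laser from frozen sections of C57BL/6 forelimb cartilage, with no treatment or mutation named in the labels. Zone and age differ together between the groups, so their parts cannot be told apart. The labels do not say whether replicates came from separate embryos, so p-values measure only the spread between these libraries, which may be technical.

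A nuclear receptor carries a DNA-binding domain with a pair of zinc fingers and, in most members, a pocket for a small lipid-soluble ligand. RXR proteins pair with the thyroid, vitamin D, fatty acid and oxysterol receptors, whereas steroid receptors wait on chaperones and bind DNA with a partner of their own kind. In the growth plate, thyroid hormone and glucocorticoids are known to set the pace of chondrocyte maturation, and vitamin D is needed for the mineral supply of cartilage and bone.

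The zinc fingers show how close these genes are to each other, and whether reads of a member could be taken for those of another. Below are 48 bases of the coding sequence in the first zinc finger, from GENCODE M21 transcripts (GRCm38), 5′ to 3′. Capitals mark 18 bases that start at the codon of the third cysteine of that finger. They span the P-box, the residues that read the DNA.
Vdr: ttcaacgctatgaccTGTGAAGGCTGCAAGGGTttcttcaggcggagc
Thra: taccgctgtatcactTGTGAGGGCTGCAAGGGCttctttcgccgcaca
Thrb: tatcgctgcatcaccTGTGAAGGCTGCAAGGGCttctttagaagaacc
Nr4a2: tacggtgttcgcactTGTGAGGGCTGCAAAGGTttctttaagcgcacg
Esr1: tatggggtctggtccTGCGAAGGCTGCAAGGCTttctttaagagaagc
Nr3c2: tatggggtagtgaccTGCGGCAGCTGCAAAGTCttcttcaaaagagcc
Thra and Thrb were identical at 39 of 48 bases, and at 17 of the 18 in capitals. Vdr matched Thra at 33 bases and Thrb at 34. Nr3c2, the mineralocorticoid receptor, matched Vdr at only 27 bases of the 48 and 11 of the 18 in capitals. Even so, no 31-base stretch was shared between Thra and Thrb transcripts, and none of the 5639 distinct stretches of 31 bases in Vdr occurred in any other gene. Of the 31 genes, 24 shared under 1% of such stretches with other genes and 8 shared none.

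Values are given as TPM or as CPM. TPM, as the authors deposited it, is scaled to transcript length and can be compared between genes. CPM is the estimated count of a gene per library total, with TMM scaling (trimmed mean of M values), and it underlies the tests between groups. In each pair of values, HC replicate 3 stands before HC replicate 4 and PC replicate 1 before PC replicate 2. A gene is said to have risen or fallen only where edgeR's quasi-likelihood test gave an adjusted p under 0.05.

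The HC libraries held 15246529 and 21866266 estimated counts, and the PC libraries 30373440 and 36644496. Genes with a count numbered 17012 and 17945 in HC, against 21352 and 21154 in PC. Mitochondrial genes took 20.2% and 14.1% of the counts in HC, against 8.81% and 13.2% in PC. The gene model Gm10800 took 8.75% and 2.67% in HC, against 1.75% and 2.39% in PC, so HC replicate 3 stood apart in both. Checked against its markers, the HC label held. Col10a1, the hypertrophic collagen, was at 4714 and 11143 TPM in HC, against 55.1 and 385 TPM in PC. All 6 hypertrophic markers had higher CPM in both HC libraries than in either PC library, as did 27.7% of all genes tested. Of the 6, 2 rose, and their median log2 fold change was 5.23. Col2a1, the main cartilage collagen, was at 2200 and 4146 TPM in HC, against 7676 and 4404 TPM in PC, and 0 of 7 chondrocyte markers passed.

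Markers of other cells also moved with the groups. Summed over their lists, endothelial markers held 68.5 and 64.1 TPM in HC, against 18.4 and 13.4 TPM in PC, and 2 of 5 tested rose. Macrophage markers held 87.2 and 49.5 TPM in HC, against 6.86 and 12.3 TPM in PC, with 2 of 5 higher, although C1qa was at 0 in both HC libraries. Osteoclast markers held 125 and 109 TPM in HC, against 10.5 and 14.7 TPM in PC, with 2 of 4 higher. The sums of these 3 lists were thus higher in both HC libraries than in either PC library. Red blood cell markers held 56.4 and 82.8 TPM in HC, against 32.8 and 24.1 TPM in PC, and 2 of 5 rose. Perichondrium markers held 206 and 173 TPM in HC, against 252 and 183 TPM in PC, and 2 of 6 rose. Muscle markers held 112 and 36.5 TPM in HC, against 29.9 and 48.9 TPM in PC, and 1 of 5 rose. None of the 4 osteoblast markers tested passed, at a sum of 1392 and 774 TPM in HC, against 120 and 187 TPM in PC. Nerve and glia markers summed to 1.04 and 1.51 TPM in HC, against 13.3 and 10.5 TPM in PC, with 1 of 3 lower. Epidermal markers summed to 2.72 and 5.97 TPM in HC, against 8.41 and 4.74 TPM in PC, with none of 2 passing. The 4 adipocyte markers summed to under 1 TPM in every library, and Adipoq and Cidec were at 0 in both HC libraries. The part of these cells in the receptor values was not tested, and in such bulk RNA fewer cells of a type and less RNA per cell cannot be told apart.

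Of the 31 receptors, 14 had a mean of at least 5 TPM in HC or PC, 17 were under 5 TPM in both, and 7 of those were under 1 TPM in both. A count was present in every library for 27 of them. The other 4 were listed at 0 in a single HC library, and a count of 0 allows up to 3 counts, or 0.244 CPM in HC replicate 3 and 0.135 CPM in HC replicate 4, for counting error alone. Of 30 receptors that passed the filter on low counts, 1 rose in HC and 0 fell, which is 3.33% against 4.71% of all 16607 genes tested. By direction, 2.75% of all genes rose and 1.96% fell. The share of receptors called was thus near that of all genes. The unadjusted p was under 0.05 for 6 receptors (20% of those tested, against 27% of all genes), 5 of them higher in HC. The median log2 fold change of the 30 was 0.28, against -0.04 for all genes. In CPM the groups did not overlap for 15 receptors (50%, against 61% of all genes). HC lay above PC for 12 (40%, against 27.7%) and below for 3 (10%, against 33.3%). This lean towards HC depended on the measure. Only 9 receptors were apart in both CPM and TPM, 7 with HC above and 2 with HC below. Rxra, Nr1d1, Rorb, Nr2c1, Nr2f2 and Nr2f6 were apart in CPM but overlapped in TPM. Esr1, Rora, Nr4a3 and Nr6a1 overlapped in CPM but had HC below PC in TPM. The share of all genes apart in TPM was not computed.

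Every call given here and below was lost in some settings. With library size scaling alone, with limma on TPM and on protein-coding transcripts only, no gene of the whole table passed, although 3744 to 4543 genes had an unadjusted p under 0.05 in each of them. Library size scaling alone also put the median log2 fold change of all genes at -0.29 and that of the 30 receptors at about 0 (-0.0016). The gap between both medians was 0.31 with TMM and 0.29 without. It was 0.70 without HC replicate 4, 0.14 without PC replicate 2 and 0.03 with limma on log2(TPM + 1) with no filter.

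**Figure D1:**
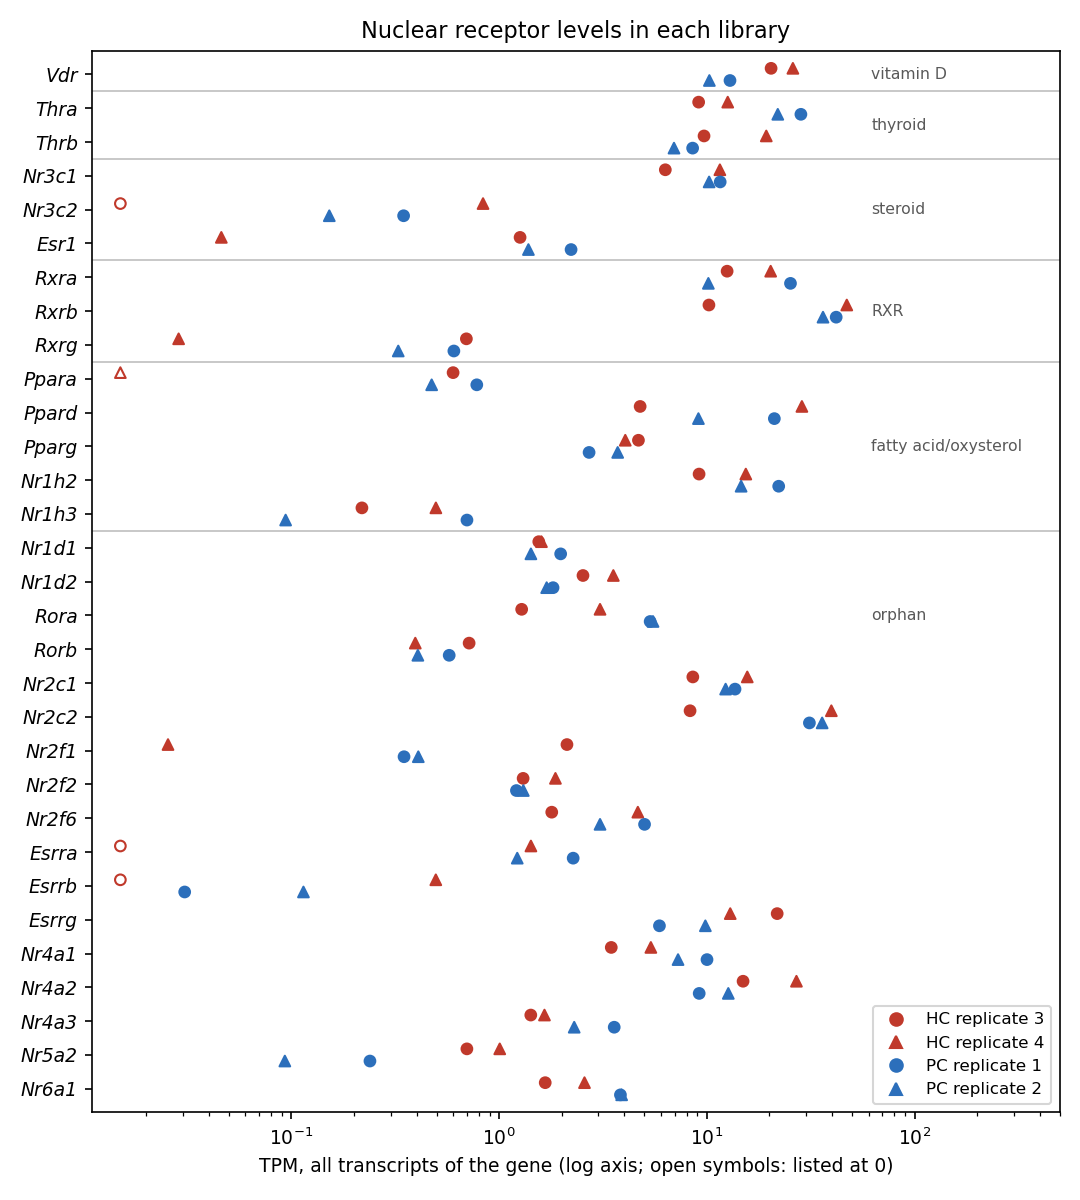
TPM of each of the 31 receptor genes in each library, on a log axis, with HC replicates in red, PC replicates in blue and open symbols for genes listed at 0. Vdr, Thrb and Nr4a2 have both HC points to the right of both PC points, Thra and Nr4a1 have them to the left, and most other receptors overlap or lie under 5 TPM.

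Vdr, the receptor for the active form of vitamin D, was the receptor that rose. It lies on chromosome 15 (97854425 to 97910630, minus strand, GRCm38). It had 102 and 88.7 CPM in HC libraries, against 32.1 and 29.7 CPM in PC libraries. Both HC values were far above both PC values, and the values within a group were close. The mean was 95.5 ± 9.58 CPM in HC and 30.9 ± 1.71 CPM in PC (SD, n = 2 each). That is 3.09-fold, and edgeR gave a log2 fold change of 1.63 ± 0.29 (SE) with an adjusted p of 0.0425. In TPM the difference was smaller, 20.4 and 25.9 in HC against 12.9 and 10.3 in PC.

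The call for Vdr was close to its threshold. Without PC replicate 1 the adjusted p was 0.183, and without PC replicate 2 it was 0.174, while the log2 fold change was 1.68 and 1.57. Without HC replicate 3 or HC replicate 4 the direction held. Residual spread then came from the PC pair alone, so those fits cannot support the call. The call was lost with scaling to library size alone (1.35, adjusted p 0.0749) and with limma on TPM (0.94, adjusted p 0.241). Most of the TPM of the gene stood on the coding transcript Vdr-201, of 4370 bases, with 19.0 and 25.9 TPM in HC and 11.2 and 9.15 TPM in PC. By the summed TPM of coding transcripts, Vdr ranked 1 of the 31 receptors in HC (23.2 ± 3.94) and 8 in PC (10.7 ± 0.68). In HC its lead over the next receptor, Rxra at 16.3 ± 5.70, was within the summed spread of the pair.

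The Vdr promoter is shown because it belongs to the receptor that rose. It comes from RefSeq (GRCm38.p6) at chr15:97908247-97908546, minus strand, and runs 250 bases before to 50 bases after the annotated start. Capitals mark GGGCGG on the strand shown, the core of the binding site of Sp1, searched on both strands.
Vdr: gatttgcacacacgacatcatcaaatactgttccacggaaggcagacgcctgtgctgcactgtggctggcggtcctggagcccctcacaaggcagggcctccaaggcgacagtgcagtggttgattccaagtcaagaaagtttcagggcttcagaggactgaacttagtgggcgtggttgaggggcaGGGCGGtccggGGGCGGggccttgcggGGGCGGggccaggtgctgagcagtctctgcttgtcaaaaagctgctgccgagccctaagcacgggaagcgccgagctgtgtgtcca
It holds 3 matches. At least 3 were present in 10.71% of 32851 RefSeq mouse promoters of this length, and at least 1 in 35.7%. Neither AGGTCA, the core that many nuclear receptors bind, nor CACGTG, the E-box of the clock, was found in this window on either strand. Those motifs were present in 16.3% and 7.2% of all promoters. Over 45 promoters of 29 receptors, AGGTCA was found in 8 promoters, GGGCGG in 21 and CACGTG in 1. A match describes letters only.

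Of 10 genes of vitamin D handling and action, 6 were tested and 0 rose or fell; their median log2 fold change was 1.39. Cyp24a1, which breaks down the active vitamin, Cyp27b1, which makes it, and the calcium transport genes Trpv6 and S100g did not pass the filter. Tnfsf11 (RANKL), which calls osteoclasts, had 7.01 and 13.4 TPM in HC, against 0.042 and 1.03 TPM in PC. Its log2 fold change was 4.59 ± 1.25, with an edgeR adjusted p of 0.0893. The other tested genes with the lowest p, Lrp2, Calb1 and Cyp27a1, had edgeR adjusted p of 0.314 to 0.513.

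**Figure D2:**
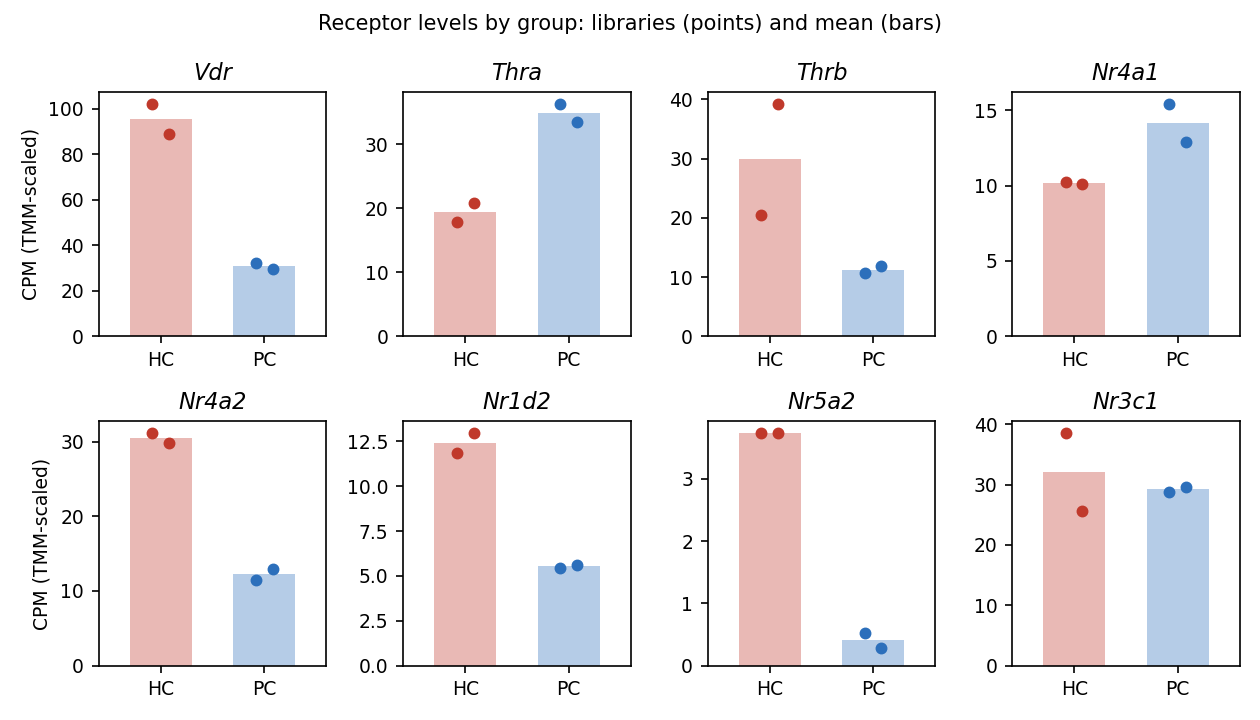
CPM of 8 receptors in each library, HC to the left and PC to the right of each panel, with the mean as a bar. Vdr has 102 and 88.7 CPM in HC against 32.1 and 29.7 in PC; Thra runs the other way, and Nr3c1 overlaps.

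The thyroid hormone receptors lay in opposite directions, though neither passed the test. Thra, the main thyroid hormone receptor of the skeleton (chromosome 11, 98740638 to 98769006, plus strand), had 17.9 and 20.8 CPM in HC libraries, against 36.4 and 33.6 CPM in PC libraries. Both HC values were under both PC values. Its log2 fold change was -0.85 ± 0.31, with an edgeR adjusted p of 0.149. Thrb, known for feedback on the thyroid axis and for hearing (chromosome 14, 17660261 to 18038090, plus strand), had 20.5 and 39.3 CPM in HC, against 10.7 and 11.8 CPM in PC. Here both HC values were above both PC values, but they were far from each other. Its log2 fold change was 1.41 ± 0.43, with an edgeR adjusted p of 0.107. Without HC replicate 3 it was 1.80 and without HC replicate 4 it was 0.85.

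As a share of the TPM of the pair, Thra held 48.5% and 39.5% in HC, against 76.9% and 76.0% in PC. Thrb held the rest, 51.5% and 60.5% in HC against 23.1% and 24.0% in PC. An exact permutation test of 2 libraries against 2 cannot go below a p of 0.333, and the share was not tested. On coding transcripts alone the shares of Thra were 48.5% and 40.8% in HC, against 76.8% and 73.4% in PC. The summed TPM of both genes overlapped between groups, at 18.8 and 31.9 in HC and 36.9 and 28.9 in PC. Thra and Nr1d1 overlap tail to tail by 1075 bases on opposite strands of chromosome 11. Of the 31-base stretches of Thra, 5.17% lie in Nr1d1 transcripts, and without a stated strand setting reads from there cannot be assigned. Within Thra, Thra-201 had 2.98 and 4.22 TPM in HC against 9.51 and 9.37 in PC, and Thra-202 had 2.80 and 6.75 TPM in HC against 14.9 and 9.79 in PC. Both transcripts were lower in each HC library than in either PC library. How reads are split between transcripts carries an error that is unknown here.

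**Figure D3:**
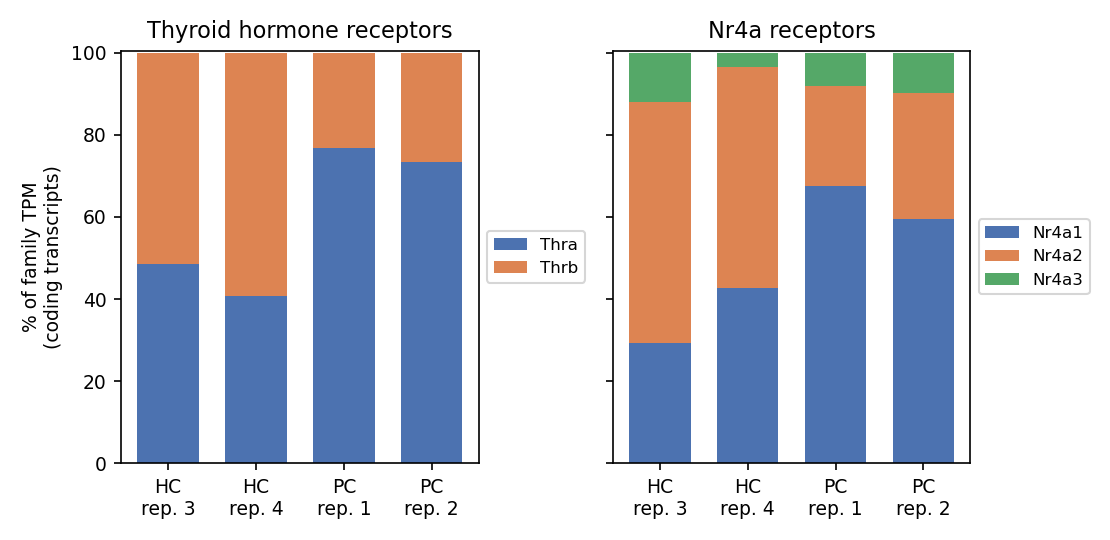
Share of each gene in the summed coding TPM of its family, in percent, for the thyroid hormone receptors and the Nr4a receptors, with HC libraries left of PC libraries. Thra holds 48.5% and 40.8% in HC against 76.8% and 73.4% in PC; Nr4a2 holds 58.6% and 54.0% in HC against 24.3% and 30.7% in PC.

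Of 11 genes that carry, convert or answer thyroid hormone, 8 were tested and 0 rose or fell. Slc16a10, a transporter of thyroid hormone and aromatic amino acids, differed by 1.12 ± 0.30 on the log2 scale (adjusted p 0.0882 with edgeR). Klf9, a transcription factor induced by thyroid hormone and glucocorticoids, had 1.25 ± 0.42 (adjusted p 0.127). Hr, a corepressor and known target of the hormone, had -2.80 ± 1.01 (adjusted p 0.148). The median over the 8 was 0.64.

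Among steroid receptors, Nr3c1 (the glucocorticoid receptor) was the most abundant by TPM in every library. It had 38.6 and 25.6 CPM in HC, against 28.8 and 29.7 CPM in PC. The groups overlapped, with a log2 fold change of 0.13 ± 0.34 and an edgeR adjusted p of 0.842. Esr1, an oestrogen receptor, had 62 and 1 counts in HC, against 94 and 122 in PC. Nr3c2, the mineralocorticoid receptor, had 0 and 55 counts in HC, against 31 and 18 in PC. The HC libraries thus went against each other for both, and the fitted folds of -0.23 ± 1.59 and 0.87 ± 1.79 rest on single libraries. Esr1 was at -5.92 without HC replicate 3 and turned to 0.76 without HC replicate 4. Nr3c2 turned to -7.29 without HC replicate 4 and was at 1.85 without HC replicate 3.

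Among genes of glucocorticoid handling and action some passed. Of 14, 13 were tested, 2 rose and 0 fell (15.4%, against 2.75% of all genes higher), with a median log2 fold change of 0.52. As this list was chosen with earlier results known, the share is a description only. Sgk1, a kinase induced by glucocorticoids, was at 64.5 and 267 TPM in HC, against 15.6 and 30.2 TPM in PC, and rose by 3.13 ± 0.55 (edgeR adjusted p 0.0425). Zbtb16, a zinc finger gene that glucocorticoids induce, rose by 2.40 ± 0.47 (adjusted p 0.0498, but 0.0982 without PC replicate 1 and 0.0538 without PC replicate 2), and Tsc22d3, a glucocorticoid-induced zipper protein, had 2.25 ± 0.45 (adjusted p 0.0518). Errfi1 had 1.38 ± 0.33 (adjusted p 0.074). Of 10 receptor chaperones, 1 fell (10%, against 1.96% of all genes). Fkbp4, which helps steroid receptors to fold and move, was at 13.8 and 38.0 TPM in HC, against 156 and 147 TPM in PC (-1.88 ± 0.29, edgeR adjusted p 0.037). The median over the chaperones was -0.49, and Ptges3, Ppid and Stip1 had -1.73, -1.15 and -0.97, with adjusted p of 0.0607 to 0.128. Without PC replicate 1 no chaperone passed, and the adjusted p of Fkbp4 was 0.0667. Of 7 tested genes of oestrogen and sex steroid handling 0 passed, with Hsd17b4, Cyp19a1, Gper1 and Hsd17b12 nearest at edgeR adjusted p of 0.17 to 0.547.

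None of the 3 RXR genes, the partners of several classes, passed. Summed over all transcripts, Rxra and Rxrb were at 10 TPM or more in every library and Rxrg was under 1 TPM in each. Rxra had 45.8 and 47.6 CPM in HC libraries, against 44.8 and 31.4 CPM in PC libraries, with a log2 fold change of 0.29 ± 0.32, for which edgeR gave an adjusted p of 0.607. Rxrb had 5.60 and 21.2 CPM in HC, against 20.5 and 14.7 CPM in PC (-0.38 ± 0.65, adjusted p 0.755). Rxrb was low in HC replicate 3, and without HC replicate 4 its log2 fold change was -1.66. Rxrg had 21 and 1 counts in HC, against 27 and 19 in PC. Most of the TPM of Rxrb in every library sat on a retained intron model of 516 bases, with 10.0 and 36.6 TPM in HC and 25.2 and 30.4 TPM in PC. Its coding transcripts had only 0.21 and 6.69 TPM in HC, against 10.1 and 4.675 TPM in PC. On coding transcripts Rxra held 93.1% and 75.1% of the TPM of the 3 RXR genes in HC, against 70.2% and 67.0% in PC.

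None of the 5 receptors for fatty acids and oxysterols passed, with a median log2 fold change of 0.30. Pparg, the receptor that drives fat cell formation, had 8.77 and 5.31 CPM in HC, against 2.85 and 3.50 CPM in PC. The groups did not overlap, and its log2 fold change was 1.14 ± 0.59 (edgeR adjusted p 0.282). Ppard had 17.0 and 48.7 CPM in HC, against 34.2 and 19.2 CPM in PC, so the spread within each group exceeded any difference (0.30 ± 0.58, adjusted p 0.784). Nr1h2 (LXR beta), an oxysterol receptor, had 8.04 and 12.6 CPM in HC, against 21.998 and 8.57 CPM in PC (-0.57 ± 0.57, adjusted p 0.577). Ppara had 19 and 0 counts in HC, against 27 and 45 in PC. Nr1h3 (LXR alpha) had 5 and 13 counts in HC, against 22 and 4 in PC, none of them on a coding transcript.

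Among known targets of these receptors some passed. Of 13 PPAR targets, 4 rose and 0 fell (30.8%, against 2.75% of all genes higher), with a median log2 fold change of 1.76 against -0.04 for all genes. The list was chosen with earlier results of these data known, so its share and median describe it and test nothing. Pdk4, which shifts cells away from glucose oxidation, was at 66.5 and 102 TPM in HC, against 4.70 and 11.1 TPM in PC, and rose by 3.77 ± 0.44 (edgeR adjusted p 0.0359). Cpt1a, which admits fatty acids to mitochondria, rose by 2.97 ± 0.43, Angptl4 by 2.70 ± 0.36 and Lpl, a lipase, by 2.19 ± 0.42. Without PC replicate 1 the calls of Cpt1a (adjusted p 0.061) and Lpl (0.0726) were lost. Of 8 LXR targets 1 rose and 1 fell (12.5% each, against 2.75% of all genes higher and 1.96% lower). Abca1, the cholesterol exporter, was at 11.1 and 32.7 TPM in HC, against 1.02 and 1.99 TPM in PC (4.20 ± 0.57, edgeR adjusted p 0.0359). Srebf1, the regulator of fatty acid synthesis, was at 11.3 and 17.5 TPM in HC, against 167 and 61.8 TPM in PC (-2.84 ± 0.53, adjusted p 0.0471), a call lost without PC replicate 1 (0.0767). Mylip and Smpdl3a had 1.97 and 1.22, with adjusted p of 0.0812 and 0.0895. The marker lists of endothelium and macrophages, cells that also use such lipid genes, had higher sums in HC as given above, and their part in these values was not tested.

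**Figure D4:**
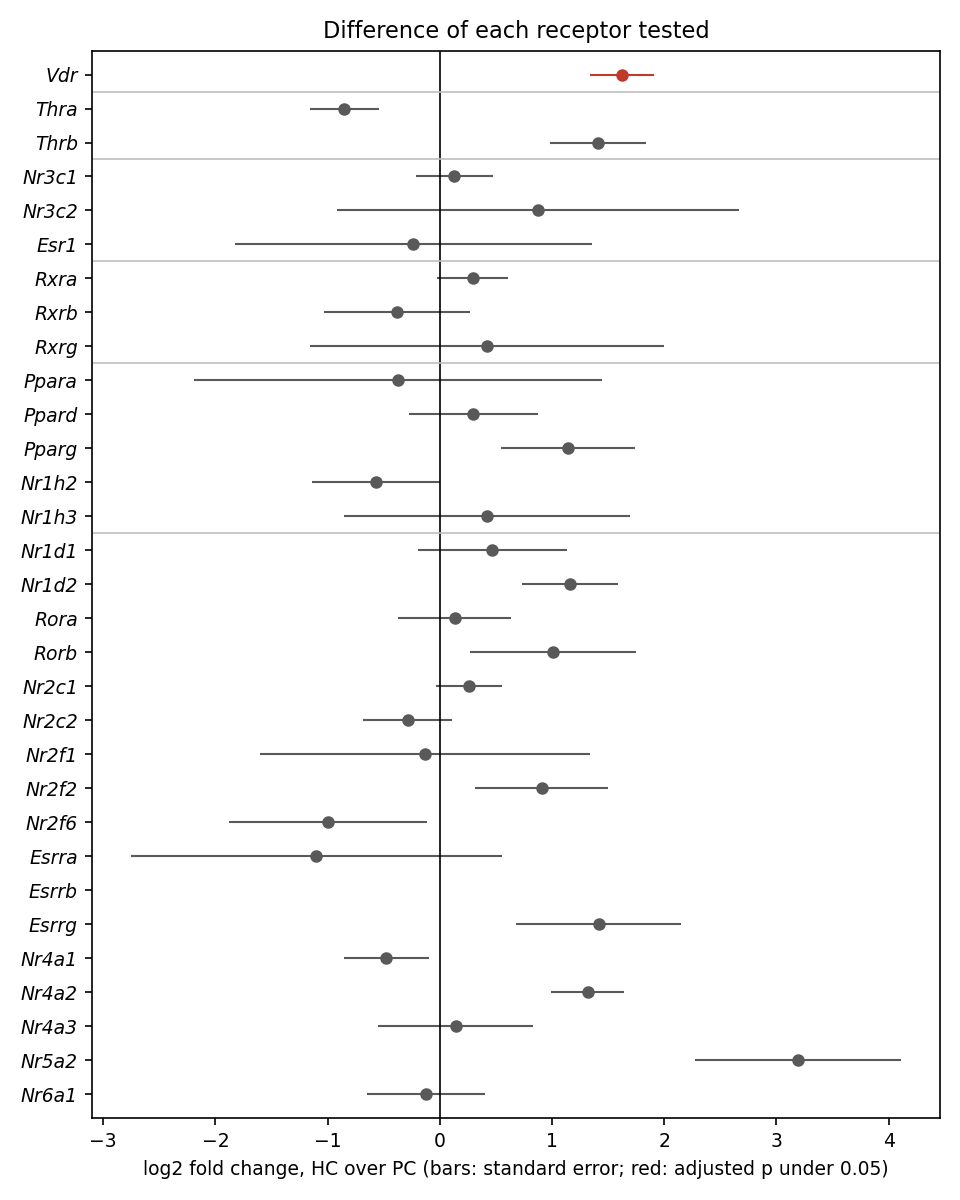
Log2 fold change of HC over PC with its standard error for the 30 receptors tested, with Vdr in red as the receptor that passed. Vdr lies at 1.63 ± 0.29; Nr5a2 lies further out at 3.20 ± 0.92 on few counts, and Thra lies at -0.85 ± 0.31.

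Of the 17 orphan receptors 16 were tested and 0 passed, with a median log2 fold change of 0.20. In CPM, HC lay above PC for 8 and below for 2 of the 16, against 27.7% and 33.3% of all genes. In TPM this lean was absent. HC then lay above PC for Nr1d2, Esrrg, Nr4a2 and Nr5a2, and below for Rora, Nr4a1, Nr4a3 and Nr6a1. The Nr4a receptors are immediate early genes that act without a ligand. Nr4a2 (Nurr1; chromosome 2, 57106830 to 57124003, minus strand) had 31.2 and 29.8 CPM in HC libraries, against 11.4 and 13.01 CPM in PC libraries. The values within each group were close, and its log2 fold change was 1.32 ± 0.33 with an edgeR adjusted p of 0.0763. Nr4a1 (Nur77) had 10.2 and 10.1 CPM in HC, against 15.4 and 12.9 CPM in PC, a log2 fold change of -0.48 ± 0.38 (adjusted p 0.479). Nr4a3 had 9.98 and 3.06 CPM in HC, against 6.13 and 5.63 CPM in PC, which overlap. Across the 12 alternative settings the log2 fold change of Nr4a2 stayed between 0.84 and 1.41.

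In shares of the summed TPM of the family, Nr4a2 held 75.4% and 79.3% in HC, against 40.3% and 57.0% in PC. Nr4a1 held 17.5% and 15.8% in HC, against 44.0% and 32.7% in PC. A processed transcript of 1099 bases, Nr4a2-205, took 8.03 and 20.2 TPM in HC and 4.9998 and 5.73 TPM in PC. On coding transcripts the levels of Nr4a2 were 6.86 ± 0.07 TPM in HC and 3.68 ± 0.11 TPM in PC (SD, n = 2 each). The coding shares of Nr4a2 were 58.6% and 54.0% in HC, against 24.3% and 30.7% in PC, so HC stayed above PC with the short model left out.

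The promoters of the 3 Nr4a genes are printed because each is dense in the same short motif, although their values lay in different directions. They come from RefSeq (GRCm38.p6) and span 250 bases before to 50 bases after the annotated start. Capitals mark TGACG and its reverse complement CGTCA, the core of the cyclic AMP response element. The positions are chr15:101266596-101266895 (plus strand) for Nr4a1, chr2:57123954-57124253 (minus strand) for Nr4a2 and chr4:48045055-48045354 (plus strand) for Nr4a3.
Nr4a1: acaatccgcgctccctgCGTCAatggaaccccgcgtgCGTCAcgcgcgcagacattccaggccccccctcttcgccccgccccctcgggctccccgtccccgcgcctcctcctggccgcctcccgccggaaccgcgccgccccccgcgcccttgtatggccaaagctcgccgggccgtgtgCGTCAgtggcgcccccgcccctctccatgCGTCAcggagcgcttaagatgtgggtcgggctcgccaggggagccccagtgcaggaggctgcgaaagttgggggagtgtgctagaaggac
Nr4a2: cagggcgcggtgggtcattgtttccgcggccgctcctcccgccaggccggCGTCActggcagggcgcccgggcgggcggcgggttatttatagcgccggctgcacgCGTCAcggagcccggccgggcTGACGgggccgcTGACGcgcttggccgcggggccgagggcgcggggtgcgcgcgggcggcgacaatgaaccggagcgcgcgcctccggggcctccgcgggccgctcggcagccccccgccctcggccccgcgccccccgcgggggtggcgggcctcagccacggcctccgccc
Nr4a3: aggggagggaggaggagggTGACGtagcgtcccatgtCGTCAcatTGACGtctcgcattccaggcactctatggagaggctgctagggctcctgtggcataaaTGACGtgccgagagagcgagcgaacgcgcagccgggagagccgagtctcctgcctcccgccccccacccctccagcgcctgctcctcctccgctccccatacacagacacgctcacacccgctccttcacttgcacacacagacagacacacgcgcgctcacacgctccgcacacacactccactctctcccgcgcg
Each promoter held 4 matches over both strands. At least 4 were found in 0.23% of the 32851 promoters and at least 1 in 20.8%. Of the 45 promoters of receptors in the table, 13 had a match. None of the 3 windows held AGGTCA or CACGTG.

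Among other genes that stimuli induce within minutes some rose in HC. Of 10 tested, 4 rose and 0 fell (40%, against 2.75% of all genes higher), with a median log2 fold change of 2.74. Earlier results of these data were known when the list was chosen, so this share is a description only. Egr1 was at 44.9 and 68.4 TPM in HC, against 3.76 and 5.71 TPM in PC, and rose by 4.05 ± 0.40 (edgeR adjusted p 0.0359). Egr2, Egr3 and Atf3 rose by 4.72 ± 0.62, 4.55 ± 0.56 and 4.63 ± 0.55. With edgeR on counts offset by transcript length the number was again 4, and with library size scaling alone it was 0. The CPM of Nr4a1, in the same class of genes, was lower in both HC libraries than in either PC library.

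Nr1d1 and Nr1d2 (REV-ERB alpha and beta) repress clock genes, and Ror receptors activate them through the same sites. Nr1d2 had 11.9 and 12.97 CPM in HC, against 5.46 and 5.63 CPM in PC. The groups did not overlap, and the log2 fold change was 1.16 ± 0.43 (edgeR adjusted p 0.155). Nr1d1 had 5.03 and 3.33 CPM in HC, against 3.25 and 2.78 CPM in PC (0.47 ± 0.67, adjusted p 0.703), and its TPM overlapped. Rora had 7.71 and 17.1 CPM in HC, against 10.4 and 12.3 CPM in PC (0.13 ± 0.50, adjusted p 0.895). In TPM Rora was lower in both HC libraries, at 1.28 and 3.06 against 5.33 and 5.50 in PC. Coding transcripts held 86.9% and 76.8% of its TPM in HC but 36.9% and 25.1% in PC. On those transcripts alone Rora had 1.11 and 2.35 TPM in HC, against 1.97 and 1.38 TPM in PC, which overlap. Rorb had 7.87 and 2.93 CPM in HC, against 2.76 and 2.57 CPM in PC. Of 15 clock genes tested 0 passed, with a median log2 fold change of 0.22. Bhlhe41, a clock repressor, had -1.76 ± 0.50 and Cry2 -1.25 ± 0.40 (edgeR adjusted p 0.0954 and 0.118), while Bhlhe40 had 0.76 and Arntl (Bmal1) 0.87, with adjusted p of 0.215 and 0.40.

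The testicular receptors, Nr2c1 and Nr2c2, were among the most abundant orphan receptors. Nr2c1 had 32.6 and 32.9 CPM in HC, against 26.6 and 28.1 CPM in PC, a log2 fold change of 0.26 ± 0.29, for which edgeR gave an adjusted p of 0.625. Nr2c2 had 42.0 and 85.5 CPM in HC, against 78.1 and 77.6 CPM in PC (-0.29 ± 0.40, adjusted p 0.696). HC replicate 3 lay apart from the other libraries for Nr2c2. Of its 31-base stretches 30.7% occur in other genes, mostly in Mrps25 on the opposite strand, so its level is uncertain. By coding TPM Nr2c2 ranked 1 in PC (25.6 ± 2.29) and 3 in HC (15.1 ± 15.7).

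The COUP-TF receptors were low. Nr2f2 had 6.74 and 5.13 CPM in HC, against 2.94 and 3.37 CPM in PC (0.91 ± 0.59, edgeR adjusted p 0.382). Nr2f6 had 19 and 25 counts in HC, against 122 and 68 in PC (-0.99 ± 0.88, adjusted p 0.524), but 47.5% of its 31-base stretches occur in Ocel1 on the opposite strand. Nr2f1 had 11 and 1 counts in HC, against 20 and 16 in PC.

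Oestrogen-related receptors regulate mitochondrial genes and bind no natural oestrogen. Esrrg had 10.6 and 3.56 CPM in HC libraries, against 2.30 and 2.96 CPM in PC libraries, with a log2 fold change of 1.42 ± 0.74, for which edgeR gave an adjusted p of 0.282. The groups did not overlap, yet the value rested on HC replicate 3: it was 0.43 without that library and 1.99 without HC replicate 4. Most of its TPM, 21.8 and 7.84 in HC and 4.28 and 9.03 in PC, sat on Esrrg-205, a processed transcript of 507 bases that codes for no protein. On coding transcripts alone the log2 fold change was -0.38. Esrra had 0 and 38 counts in HC, against 75 and 61 in PC. Esrrb, which did not pass the filter, had 0 and 37 counts in HC, against 2 and 4 in PC.

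Nr5a2 (LRH-1), a receptor of liver, gut and steroid-making tissue, was under 1 TPM on average in HC and in PC. It had 46 and 83 counts in HC, against 18 and 11 in PC, which is 3.73 and 3.74 CPM in HC and 0.523 and 0.286 CPM in PC. The groups were well apart, with a log2 fold change of 3.20 ± 0.92 and an edgeR adjusted p of 0.0974. Nr6a1 (GCNF), a germ cell receptor, had 4.71 and 7.88 CPM in HC, against 6.83 and 6.93 CPM in PC (-0.12 ± 0.53, adjusted p 0.907).

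**Figure D5:**
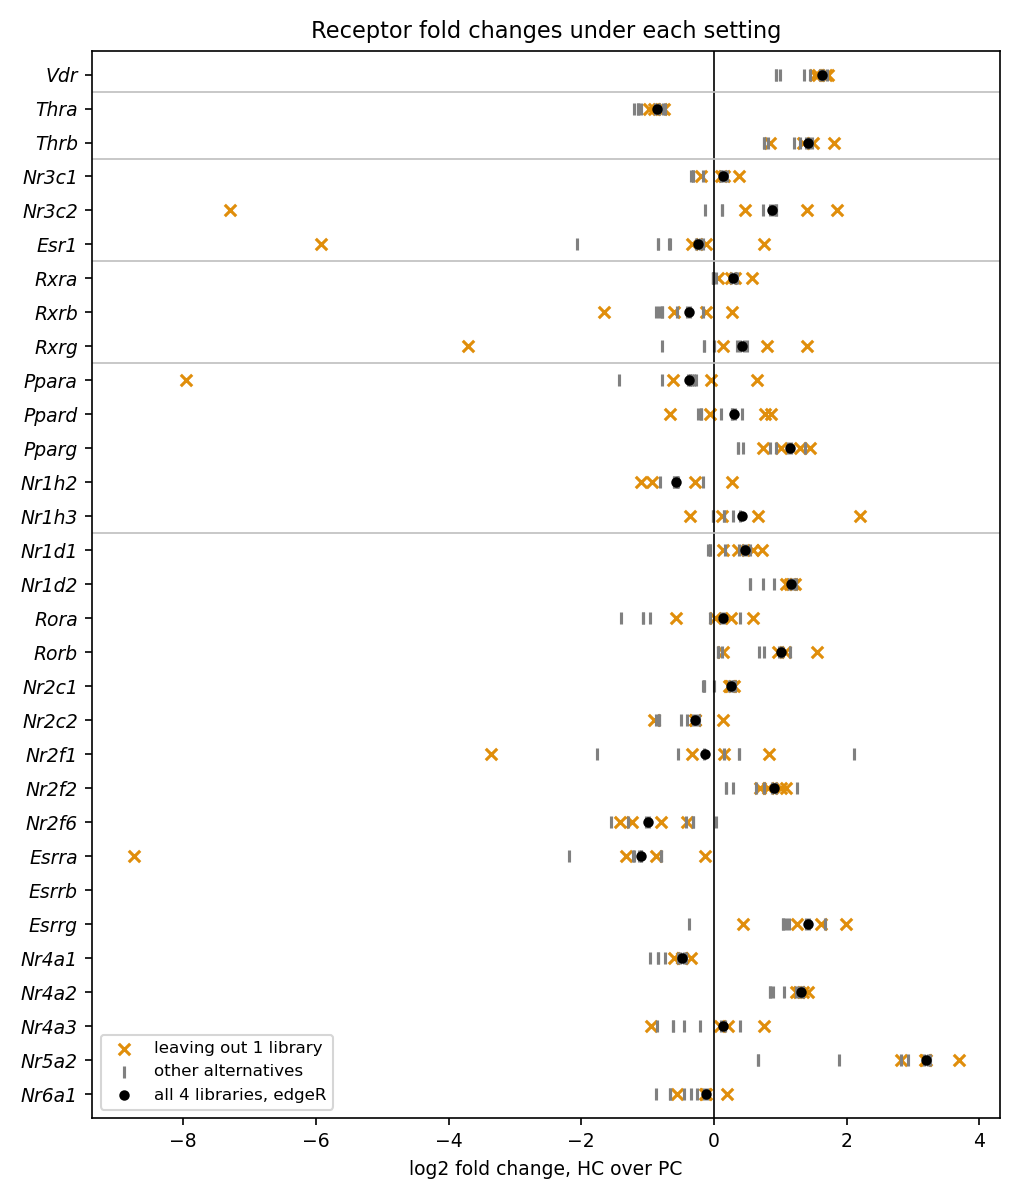
Log2 fold change of HC over PC for each receptor under each processing setting. Vdr stays between 0.94 and 1.71 in all of them, whereas receptors with few counts, such as Esr1 and Nr3c2, swing to -5.92 and -7.29 when 1 library is left out.

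Receptors act through cofactors, and of 14 coactivator genes 1 rose (7.1%, against 2.75% of all genes) and 2 fell (14.3%, against 1.96%), while of 10 corepressor genes 0 passed. Ppargc1a (PGC-1 alpha), which works with PPAR, oestrogen-related and thyroid receptors, was at 9.07 and 42.6 TPM in HC, against 1.44 and 2.48 TPM in PC. It rose by 4.01 ± 0.62 (edgeR adjusted p 0.037). Pprc1, of the same family, was at 3.61 and 3.55 TPM in HC, against 72.01 and 39.3 TPM in PC (-2.73 ± 0.38, adjusted p 0.0359). Carm1, a histone arginine methyltransferase, was at 15.6 and 23.5 TPM in HC, against 234 and 128 TPM in PC (-2.28 ± 0.34, adjusted p 0.037). Prmt1 had -0.96 ± 0.34 (adjusted p 0.142). Among corepressors, Nrip1 and Lcor had 0.80 and 0.76, with adjusted p of 0.151 and 0.192. The median over coactivators was 0.18 and over corepressors 0.07. Of 15 further nuclear receptor genes outside the 31, 7 were tested and 0 passed. Nr1h5, Nr1i2 and Nr2e1 were among those with the lowest p, at adjusted p of 0.201 to 0.77.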

How the data were processed

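RNA of 4 libraries (HC replicates 3 and 4, PC replicates 1 and 2) was analysed. Trimmomatic 0.36 (trimming), kallisto 0.43.1 (assignment of reads to transcripts) and the build mm10 are named in the submitters' processing notes. Per the file headers, the deposited tables give an estimated count, a TPM value and lengths for each transcript. Nothing used here states the strand setting or the error of the assignment, so reads of overlapping antisense genes cannot be told apart. Of 109282 transcripts, 107987 matched GENCODE M21 by identifier; unmatched ones held 0.362% to 0.534% of the counts and were left out.

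The counts of a gene's transcripts were added up and rounded. Genes kept by filterByExpr of edgeR 4.0.16 (16607) were scaled with TMM and tested with its quasi-likelihood test, with Benjamini-Hochberg adjustment over all of them and a threshold of 0.05. DESeq2 1.42.0, limma 3.58.1 on log2(TPM + 1) and log2(TPM + 0.1), other scalings and filters, and leaving out each library were alternatives, run in R 4.3.3. The fit on protein-coding transcripts only was chosen after seeing the data. The scripts were tested on simulated data. Promoters came from RefSeq (GRCm38.p6), for 29 of 31 receptors; motifs and printed sequences were chosen after values were seen.

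The receptors and gene lists were chosen with earlier results of these data known. Values per library are given for receptors that passed, that reached 5 TPM in a group or that lead their class, and for others that illustrate a class; of each list, up to 4 genes with the lowest p are named, except a few that are not reported here.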

Additional observations from a re-analysis of the deposited data

How the results depend on the processing

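No paired analysis was possible because the replicate numbers of the groups share none. With 2 libraries a group, residual spread is poorly known, and a library left out leaves a group whose lone library is assumed to vary like the other group. Against 1 receptor higher and 0 lower, DESeq2 called 4 higher (Vdr, Thrb, Nr4a2 and Nr5a2), and 0 were higher with library size scaling alone, with a transcript length offset, with limma on log2(TPM + 1), filtered or not, or log2(TPM + 0.1), and on protein-coding transcripts only. Over all genes 457 rose and 325 fell, against 1651 and 1468 with DESeq2, 963 and 965 with no filter, 251 and 155 with the length offset, and 0 and 0 with library size scaling alone, with each limma fit and on protein-coding transcripts only, where 4394, 4260, 3993, 4543 and 3744 genes had an unadjusted p under 0.05. Leaving out 1 library gave 0 to 6 receptors higher and 0 to 3 lower, and 361 to 2802 of all genes higher and 225 to 3747 lower. Without either PC library no receptor passed. Without either HC library more receptors passed than with all 4 libraries, but so did more of all genes. Residual spread then came from the PC pair alone, so those calls cannot be read as results on the receptors. The median log2 fold change of the receptors was 0.28, against -0.0016 with library size scaling alone, -0.15 with limma on log2(TPM + 1), filtered or not, -0.20 on log2(TPM + 0.1), and 0.11 to 0.51 without 1 library. The median of all genes was -0.29 with library size scaling alone, -0.39 on log2(TPM + 1) with the filter and -0.59 on log2(TPM + 0.1).

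Of 30 receptors, 11 kept their direction in all alternatives run (Thra, Thrb, Vdr, Pparg, Nr1d2, Rorb, Nr2f2, Esrra, Nr4a1, Nr4a2 and Nr5a2) and 19 turned in at least 1. None of these 19 passed with all 4 libraries. With library size scaling alone Nr2c1 (-1e-04), Nr3c1 (-0.16), Nr4a3 (-0.21), Rora (-0.065) and Rxrg (-0.003) turned. With limma on log2(TPM + 1), filtered or not, Nr1d1 (-0.061), Nr1h3 (-0.014), Nr2c1 (-0.15), Nr2f1 (0.38), Nr3c1 (-0.31), Nr4a3 (-0.62), Ppard (-0.19), Rora (-1.08), Rxra (-0.014) and Rxrg (-0.14) turned. On log2(TPM + 0.1) it was Nr1d1 (-0.086), Nr2c1 (-0.16), Nr2f1 (0.15), Nr3c1 (-0.35), Nr3c2 (-0.13), Nr4a3 (-0.86), Ppard (-0.24), Rora (-1.40), Rxra (-0.0091) and Rxrg (-0.78). With the length offset Nr2f1 (2.11), Nr2f6 (0.037), Nr4a3 (-0.46) and Rora (-0.96) turned, and on coding transcripts Esrrg (-0.38). Without 1 library the ranges that crossed 0 were -0.20 to 0.39 for Nr3c1, -7.29 to 1.85 for Nr3c2, -5.92 to 0.76 for Esr1, -1.66 to 0.27 for Rxrb, -3.71 to 1.40 for Rxrg, -7.96 to 0.64 for Ppara, -0.67 to 0.86 for Ppard, -1.09 to 0.27 for Nr1h2, -0.36 to 2.20 for Nr1h3, -0.57 to 0.59 for Rora, -0.91 to 0.13 for Nr2c2, -3.36 to 0.83 for Nr2f1, -0.94 to 0.75 for Nr4a3 and -0.56 to 0.19 for Nr6a1. The cause was not tested. DESeq2 gave no adjusted p for Nr1h3 and Nr2f1, and Nr1h3 had no value on coding transcripts. With the length offset the calls of Vdr, Fkbp4, Zbtb16, Sgk1, Lpl and Srebf1 were lost (adjusted p 0.0523 to 0.0816).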
